A study of Mus musculus with 3 samples.

Results

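The 7 haemoglobin genes Hba-x, Hba-a1, Hba-a2, Hbb-y, Hbb-bh1, Hbb-bs and Hbb-bt were followed in single-cell RNA sequencing of mouse forelimb buds at embryonic day 9.5. They are 7 of the 31054 features counted, chosen by symbol, and all 7 were found in every matrix. Their ratios were taken in erythroid barcodes, defined as droplet barcodes in which Hba-x, Hbb-y and Hbb-bh1 together supplied at least 2% of the unique molecular identifiers (UMIs, which count captured transcripts). There were 564 such barcodes of 4048 kept ones in control 1 (13.9%, exact Clopper-Pearson 95% interval 12.9% to 15.0%). Mutant 1 had 672 of 3590 (18.7%, 17.5% to 20.03%) and mutant 2 had 501 of 4684 (10.7%, 9.82% to 11.6%). In all, 1737 of 12322 kept barcodes were erythroid. Because those 3 embryonic chains chose the barcodes, their abundance there is a description. The choice also acts on ratios that set embryonic against adult chains, since it leaves out barcodes led by adult chains, so values from clusters built without globin genes are given as well.

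The control embryos were Esco2fl/fl, homozygous for a floxed allele of the cohesin acetyltransferase Esco2, and the mutant embryos were Esco2fl/fl;Prrx1-CreTg/0, with the same floxed alleles and 1 copy of a Prrx1-Cre transgene. Prrx1-Cre is known for its activity in limb bud mesenchyme and not in blood cells, so erythroid cells are not the lineage it targets. Per the series text there were 3 replicates per genotype, each a pool of 3 samples of 2 limb buds, with 2 male samples and 1 female. Libraries of 1 control and 2 mutants were analysed here. Nothing in the sources used here states that the 2 mutant pools came from separate litters, so any p-value measures only the spread between these libraries.

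Haemoglobin is assembled from alpha-type and beta-type chains, encoded in separate gene clusters, around haem. The primitive erythroid cells of the yolk sac enter the circulation early and use the embryonic chains Hba-x, Hbb-bh1 and Hbb-y, and as they mature they move from Hba-x towards Hba-a1 and Hba-a2 and from Hbb-bh1 towards Hbb-y. The definitive cells that follow, from the fetal liver and later the bone marrow, rely on Hba-a1, Hba-a2, Hbb-bs and Hbb-bt.

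In GRCm38 the alpha-type genes lie on the forward strand of chromosome 11. Hba-x (ENSMUSG00000055609) spans chr11:32276400-32278116, Hba-a1 (ENSMUSG00000069919) spans chr11:32283511-32284465, and Hba-a2 (ENSMUSG00000069917) spans chr11:32296489-32297298. The beta-type genes lie on the reverse strand of chromosome 7, in the transcribed order Hbb-y, Hbb-bh1, Hbb-bs, Hbb-bt. Hbb-y (ENSMUSG00000052187) spans chr7:103851749-103853216, Hbb-bh1 (ENSMUSG00000052217) chr7:103841637-103843164, Hbb-bs (ENSMUSG00000052305) chr7:103826534-103828096 and Hbb-bt (ENSMUSG00000073940) chr7:103812524-103813996.

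Promoters of embryonic and adult genes of both clusters are shown because the chains of each cluster are compared throughout. Each run below holds the 150 bases before the RefSeq start in GRCm38.p6, read 5′ to 3′ on the gene's strand. Capitals mark matches on either strand to CACCC, to CCAAT, to GATAA and to TATAA. The RefSeq starts of all the genes printed lie inside the GENCODE gene spans given above.
Hba-x, chr11:32276450-32276599, forward strand: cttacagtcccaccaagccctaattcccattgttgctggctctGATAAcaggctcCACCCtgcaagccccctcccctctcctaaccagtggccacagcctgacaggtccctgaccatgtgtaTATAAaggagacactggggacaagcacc
Hba-a1, chr11:32283522-32283671, forward strand: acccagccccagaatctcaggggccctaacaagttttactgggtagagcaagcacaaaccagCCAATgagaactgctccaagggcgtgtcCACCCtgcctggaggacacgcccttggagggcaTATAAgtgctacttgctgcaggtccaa
Hbb-y, chr7:103853208-103853357, reverse strand: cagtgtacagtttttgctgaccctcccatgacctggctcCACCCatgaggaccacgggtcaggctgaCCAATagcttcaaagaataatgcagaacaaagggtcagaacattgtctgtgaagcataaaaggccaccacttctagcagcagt
Hbb-bs, chr7:103827929-103828078, reverse strand: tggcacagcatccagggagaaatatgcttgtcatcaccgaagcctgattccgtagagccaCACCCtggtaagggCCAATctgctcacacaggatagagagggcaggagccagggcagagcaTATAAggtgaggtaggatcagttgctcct
Hbb-bt, chr7:103813924-103814073, reverse strand: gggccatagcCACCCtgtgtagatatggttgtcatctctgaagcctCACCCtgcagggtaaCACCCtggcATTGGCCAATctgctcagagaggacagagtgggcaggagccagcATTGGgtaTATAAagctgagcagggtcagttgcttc

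RefSeq promoter entries were matched for 6 of the 7 genes, all but Hbb-bh1. The whole RefSeq entries of Hba-a2 and Hba-a1, which run beyond the printed windows to both sides, were the same after a shift of 3 bases, with 297 of 297 compared bases identical. CACCC, the motif bound by the erythroid factor Klf1 and its relatives, was in all 6 windows and in 37.4% of 32851 promoter windows of the same length. CCAAT was in 5 of the 6, absent from the Hba-x letters, and in 24.5% of all windows. TATAA was in 5 of the 6, absent from the Hbb-y letters, and in 14.2% of all windows. GATAA, which the Gata factors bind, was in the Hba-x window alone of the 6 and in 13.3% of all. A match of these letters is a description of the sequence and not a measured binding site.

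The reads come from transcript 3′ ends, and there the adult genes resemble each other. Of the 60-base words in the last 400 bases of the annotated transcripts, 83.7% for Hba-a1 and 80.2% for Hba-a2 occur in the other gene. The shares were 56.1% for Hbb-bs and 53.1% for Hbb-bt, again each in the other, while Hba-x, Hbb-y and Hbb-bh1 shared none with any other gene. Single values of the adult genes are therefore uncertain. Sums over a pair are not changed by reads swapped within it. Reads that match both genes of a pair may go uncounted, which would lower the adult sums against the embryonic chains. This was not tested.

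The 3 libraries held 6527, 7219 and 8755 deposited barcodes and between 178159788 and 225032823 UMIs. Kept barcodes had median depths of 23046, 36296 and 41450 UMIs in control 1, mutant 1 and mutant 2, the order used below wherever 3 values are given. The erythroid sums held 40495398, 42416258 and 27233416 UMIs. Clusters built without any globin gene and named from other erythroid markers held 433, 626 and 480 of the erythroid barcodes. The remaining 131, 46 and 21 were shallow, with medians of 917, 1010 and 884 UMIs against 90332, 63300 and 58323 UMIs inside those clusters. The labels call the cells mesenchymal, but the erythroid sums held the 9 matched erythroid markers at 2565, 2261 and 2435 CPM (UMIs scaled to a total of 1000000) and the 7 mesenchyme markers at 8.07, 18.6 and 15.5 CPM. Endothelial markers summed to 57.2, 51.0 and 34.7 CPM in the same barcodes. Esco2 itself stood at 26.8, 24.6 and 28.6 CPM in the erythroid sums, with a log2 fold of -0.01 (SE 0.15, edgeR adjusted p = 0.998). Barcode sequences were shared by 2 libraries in 131 cases and by 3 in 39, and 54, 4 and 2 of the erythroid barcodes were among them. Values without these barcodes are given beside the ratios.

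Near the 2% limit the barcodes were shallow on both sides. Just inside, at 2 to 3% of UMIs, lay 59, 30 and 16 barcodes with medians of 847, 970 and 842 UMIs. Just outside, at 1 to 2%, lay 204, 124 and 76 with medians of 957, 923 and 892 UMIs. At 10% or more there were 438, 627 and 477 barcodes, and these carried nearly all haemoglobin UMIs.

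Haemoglobin transcripts were a large part of the UMIs of erythroid barcodes, and the embryonic chains led among them. The 7 genes supplied 35.7%, 39.1% and 41.4% of the UMIs there, and 98.9%, 99.6% and 99.1% of all their UMIs in kept barcodes lay in erythroid ones. The levels had the same order in every library: Hbb-y, Hba-x, Hbb-bh1, Hba-a1, Hba-a2, Hbb-bs and Hbb-bt. No gene's range over the 3 libraries overlapped that of its neighbour in this order. UMIs count transcripts by their 3′ ends, so the levels are not divided by gene length.

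Among the alpha-type genes, Hba-x, the embryonic chain, stood at 117292, 128897 and 133221 CPM. The adult-type Hba-a1 stood at 37106, 35043 and 36140 CPM. Its near copy Hba-a2 stood at 21929, 19380 and 20928 CPM. Control 1 was thus the lowest library for Hba-x. It was also the highest for both adult-type alpha genes on this scale, but not after the library scaling factors of the test below, which put it lowest for Hba-a1 and between the mutants for Hba-a2.

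Among the beta-type genes, Hbb-y, the main embryonic chain of maturing primitive cells, stood at 135089, 156012 and 172582 CPM. Hbb-bh1, the earlier embryonic chain, stood at 43613, 49633 and 49089 CPM. The adult-type genes were scarce by comparison, with Hbb-bs at 1724, 1209 and 1382 CPM. The last gene of the cluster, Hbb-bt, stood at 692, 671 and 862 CPM. For Hbb-y, Hbb-bh1 and Hbb-bs the control lay outside the range of the mutants, with or without those factors. For Hbb-bt it lay between the mutants without the factors and below both with them. A lone control often lies outside the range of the mutants by chance, for these genes as for the alpha-type ones. The share of all tested genes for which it did is not given here.

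**Figure D1:**
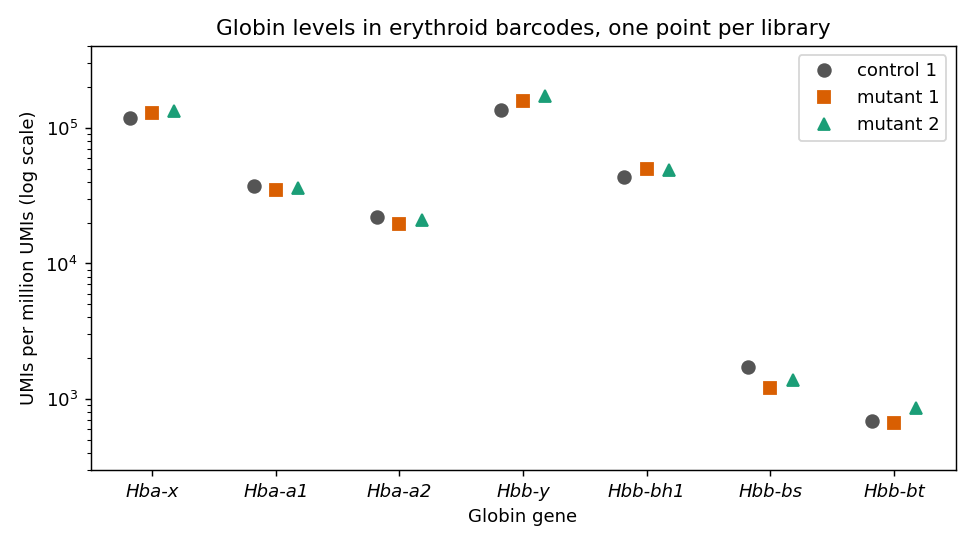
Level of each globin gene (horizontal axis) in the summed erythroid barcodes, in CPM on a log axis, with 1 point for each library. The embryonic genes Hba-x and Hbb-y lie at 117292 or above in all 3 libraries and the adult beta-type genes Hbb-bs and Hbb-bt at 1724 or below.

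None of the 7 genes was called different between mutants and control. The edgeR quasi-likelihood fit over the erythroid sums tested 7339 genes and called 0 at an adjusted p under 0.05, a background of 0%, with 166 genes at an unadjusted p under 0.05. DESeq2 on the same genes called 7 higher and 15 lower, and none of the haemoglobin genes. The edgeR log2 folds of mutants over control were 0.41 for Hbb-y (SE 0.24), 0.30 for Hbb-bh1 (SE 0.16) and 0.28 for Hba-x (SE 0.21). For the adult-type genes they were 0.06 for Hba-a1 (SE 0.15), 0.00 for Hba-a2 (SE 0.15), -0.29 for Hbb-bs (SE 0.14) and 0.27 for Hbb-bt (SE 0.22). In the clusters built without globin genes the last 2 were -0.97 and -0.23, and without the 6 adult-type barcodes of control 1 in those clusters -0.30 and 0.28. Without mutant 1 they were -0.15 and 0.49, and without mutant 2 -0.42 and 0.05. All 7 had an adjusted p of 0.998, and the median log2 fold of all genes tested was -0.01. The fit has 1 residual degree of freedom and assumes that the lone control varies like the mutants. With no filter on low counts, edgeR called 204 of 20209 genes, among them Hbb-y (adjusted p = 3.91e-07), Hba-x (adjusted p = 0.00438) and Hbb-bh1 (adjusted p = 0.00979), each higher in the mutants with nearly the same folds.

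The balance between embryonic and adult-type chains was further towards the embryonic side in both mutant libraries. Embryonic UMIs were 4.82, 5.94 and 5.98 times the adult-type UMIs. On the log2 scale this ratio was 2.27 in control 1 and 2.58 ± 0.0071 in the mutants (SD, n = 2), a difference of 0.31. That difference exceeded the spread between the mutant libraries, but with 1 control among 3 libraries the smallest p of an exact permutation test is 1 in 3, and the ratios are given without a test. In the clusters built without globin genes the difference was 0.36, and 0.31 there without the adult-type barcodes described below. Without the barcodes shared between libraries the difference was 0.30. The ratio pools both gene clusters, and most adult-type UMIs were alpha-type. It therefore also moves with the balance of alpha-type to beta-type UMIs, which was 0.974, 0.883 and 0.850. The part of that balance in the difference was not tested.

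The alpha-type chains taken alone lay in the same direction. Hba-x made up 66.5% of alpha-type UMIs in control 1 (95% interval 66.5% to 66.6%), 70.3% in mutant 1 (70.3% to 70.3%) and 70.0% in mutant 2 (70.0% to 70.0%). The mutant mean was 70.2% ± 0.214 (SD, n = 2), 3.64 percentage points above the control, and 3.76 points without the shared barcodes. These intervals cover counting error only and say nothing about the spread between embryos.

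The same direction appeared in every depth group. With the barcodes of each library at 10% or more split into 4 equal groups by depth, Hba-x in the shallowest group was 62.6%, 66.9% and 66.0% of alpha-type UMIs. In the deepest group it was 67.3%, 71.0% and 71.0%. The groups were not matched in depth between libraries, with medians of 164042, 114497 and 92284 UMIs in the deepest. With every barcode thinned to 10000 UMIs, which left out 169, 61 and 54 shallower barcodes, it was 65.7%, 69.7% and 69.3%. In the largest erythroid cluster, cluster 5, it was 67.5%, 70.6% and 70.4%, and in cluster 8 it was 65.3%, 70.0% and 69.2%. In the shallow cluster 17 the shares were 63.6%, 66.1% and 63.8%, so mutant 2 there lay close to the control. Erythroid cluster 23, with 10 barcodes of mutant 1 alone and the endothelial genes Plvap, Emcn and Cd34 among its leading genes, had 70.5%.

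Within the adult-type alpha pair, Hba-a1 supplied 62.9%, 64.4% and 63.3% of the UMIs. The balance of alpha-type to beta-type UMIs was 0.974, 0.883 and 0.850, lower in both mutant libraries.

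Within the embryonic beta pair the libraries did not separate by genotype. Hbb-bh1 made up 24.4% of Hbb-bh1 and Hbb-y in control 1 (95% interval 24.4% to 24.4%), 24.1% in mutant 1 (24.1% to 24.2%) and 22.1% in mutant 2 (22.1% to 22.2%). The mutant mean of 23.1% ± 1.41 (SD, n = 2) differed from the control by -1.27 points, less than the spread between the mutants. Without the shared barcodes the control share was 23.8%, between the mutant values of 24.1% and 22.2%, and without mutant 2 the difference was -0.270.

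Adult beta-type chains were a small part of the beta-type pool. Hbb-bs and Hbb-bt together were 1.33% of it in control 1 (95% interval 1.33% to 1.34%), 0.906% in mutant 1 (0.900% to 0.912%) and 1.00% in mutant 2 (0.994% to 1.01%). The mutants lay at 0.954% ± 0.0680 (SD, n = 2), a difference of -0.380 points, or -0.334 without the shared barcodes. Hbb-bs was 71.4%, 64.3% and 61.6% of the adult beta UMIs.

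Single barcodes overlapped widely between the libraries in their Hba-x and Hbb-bh1 shares, and less in the log2 ratio of embryonic to adult-type UMIs. Among barcodes at 10% or more, the Hba-x share had a median of 66.0% in control 1 (lowest 46.4%, highest 77.1%). The medians were 69.9% in mutant 1 (53.4% to 78.6%) and 69.3% in mutant 2 (36.6% to 83.4%). Above the control median lay 84.2% of the barcodes of mutant 1 and 79.2% of those of mutant 2. For the log2 ratio of embryonic to adult-type UMIs these shares were 96.3% and 92.7%, and for the Hbb-bh1 share they were 51.5% and 35.0%. The log2 ratio had a 75th percentile of 2.43 in control 1 and 25th percentiles of 2.45 in mutant 1 and 2.42 in mutant 2.

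The 2 embryonic beta chains rarely changed places. Hbb-bh1 exceeded Hbb-y in 2, 0 and 1 of these barcodes. The Hbb-bh1 share had medians of 22.7%, 22.8% and 21.2%, with single barcodes from 7.72% to 52.1%. The adult beta share had medians of 0.888%, 0.506% and 0.643% and reached 8.38%, 7.09% and 8.56%. Across the barcodes of a library the Hba-x share and the Hbb-bh1 share had Spearman correlations of 0.20, 0.20 and 0.30 (n = 438, 627 and 477), a description of barcodes that share a library and differ in depth. The corresponding correlations of the Hba-x share with the adult beta share were -0.02, -0.09 and -0.05.

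**Figure D2:**
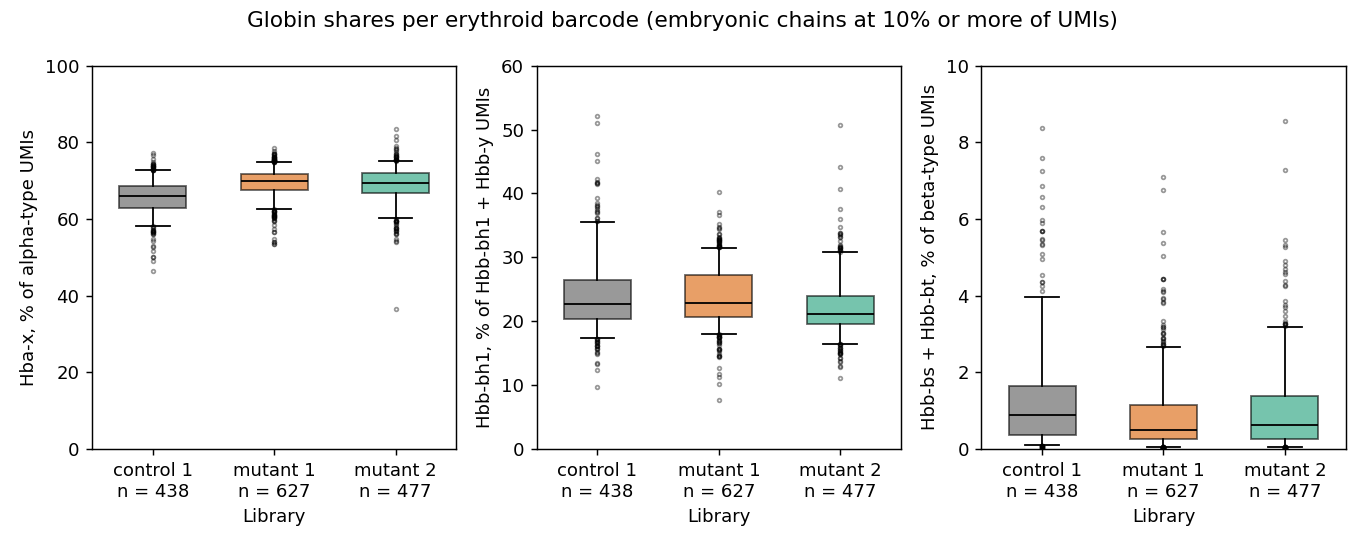
Share of Hba-x in alpha-type UMIs, of Hbb-bh1 in embryonic beta-type UMIs and of adult chains in beta-type UMIs (percent, vertical axes) per erythroid barcode at 10% or more embryonic chains, by library. Boxes give quartiles and median, whiskers the central 90 in 100 barcodes and dots the others; the boxes of all libraries overlap in each panel, and the median Hba-x share is 66.0% in control 1 against 69.9% and 69.3% in the mutants.

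edgeR called no other gene of the globin and haem pathways. The medians of the regulator, haem and membrane lists lay close to that of all genes, over members in both directions. The 2 further globin genes tested were both positive, with a median log2 fold of 0.20 against -0.01 for all genes. Of 9 further globin genes, 2 passed the filter on low values: Hbq1b, a theta-type alpha gene, at 63.1, 62.9 and 71.8 CPM (log2 fold 0.09, SE 0.13), and Hbb-bh2 at 6.22, 7.99 and 7.41 CPM (log2 fold 0.31, SE 0.17). Of 24 regulators of the globin loci, 17 were tested and 0 called in either direction, with a median log2 fold of 0.03 against -0.01 for all genes. Klf1, which activates beta-type genes through CACCC, stood at 149, 152 and 169 CPM. The regulators with the largest fold for their error were the RNA-binding protein Igf2bp1 (-0.26, SE 0.12), the repressor of globin genes Zbtb7a (0.18, SE 0.11), the maintenance methyltransferase Dnmt1 (0.10, SE 0.09) and the let-7 inhibitor Lin28b (-0.27, SE 0.24). None passed the edgeR test, each with an adjusted p of 0.998.

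Of 19 genes for haem synthesis and iron, 18 were tested and 0 called, with a median log2 fold of 0.0049. Fech, which inserts iron into haem, had -0.15 (SE 0.08), the ferritin heavy chain Fth1 0.27 (SE 0.16), the transferrin receptor Tfrc 0.12 (SE 0.10) and Ppox, a late enzyme of haem synthesis, -0.11 (SE 0.09). Of 20 genes of the erythroid membrane and globin handling, 19 were tested and 0 called, with a median of 0.03. The glycophorin Gypc had a log2 fold of 0.23 (SE 0.09), Hemgn 0.15 (SE 0.08), the anion exchanger Slc4a1 -0.23 (SE 0.14) and the blood group protein Rhd 0.18 (SE 0.13). Of 10 genes of early or definitive blood cells none reached the filter. Myb, a marker of definitive progenitors, had 4, 8 and 4 UMIs in the erythroid sums, and Ptprc had 0, 0 and 0. Other genes of this list had more, the highest being Cd34 with 200, 232 and 93 UMIs and Meis1 with 149, 239 and 148.

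The genes whose share of non-globin UMIs followed the Hba-x share most closely across erythroid barcodes, of 1311 compared, were Npm1, Gapdh, Ppia, Hsp90ab1, Mif, Hspe1, Hspd1 and Ncl. Npm1, a nucleolar protein of ribosome assembly, had Spearman correlations of 0.30, 0.37 and 0.42 (n = 564, 672 and 501). The most opposed were AY036118, Gm42418, mt-Co3, mt-Co1, mt-Co2, Rhd, Abcb10 and mt-Cytb, with -0.28, -0.34 and -0.31 for mt-Co3, a mitochondrial subunit of cytochrome oxidase. In barcodes at 10% or more thinned to 10000 UMIs (n = 391, 608 and 444) the mean correlation was 0.42 for Npm1 and -0.39 for mt-Co3.

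For the Hbb-bh1 share the correlations were weaker. Sod1, Hdgf, Rpl31, Eif4g1, Prkar2b, Ybx3, Tfrc and Ncl were highest, and Eif1, Pde4d, Urod, Fth1, Rhd, Selenow, Gm10076 and Prdx2 lowest. Sod1, a superoxide dismutase, led with 0.27, 0.25 and 0.35, and Tfrc, which takes up iron for haem, had 0.18, 0.24 and 0.22. In thinned barcodes the means fell to 0.18 for Sod1 and 0.18 for Tfrc. All these values describe barcodes that share libraries and depth, and weak correlations in sparse counts are no finding.

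Outside erythroid barcodes the haemoglobin genes appeared at a low level in every class of cells. Here and below, these classes exclude barcodes at or above 2%, except where such barcodes are said to be included. In limb mesenchyme the 7 genes summed to 620, 624 and 562 CPM. In surface ectoderm they summed to 467, 553 and 604 CPM, in endothelium to 478, 471 and 501 CPM, and in myogenic progenitors to 684, 535 and 557 CPM, from only 45 control barcodes in the last. No class stood apart from the others in all 3 libraries. In the erythroid sums the 7 genes filled 35.7%, 39.1% and 41.4% of UMIs. The 2% limit divides the barcodes by 3 of these genes, so the gap between the classes and the erythroid sums follows from the rule.

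**Figure D3:**
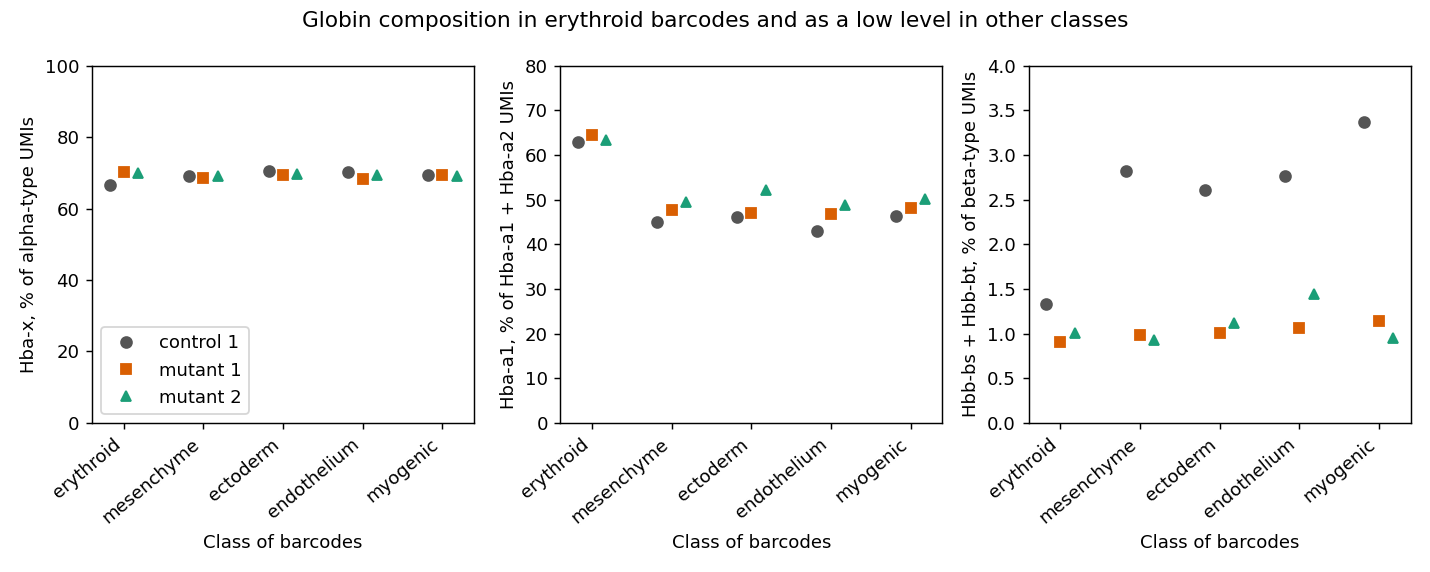
Composition of the haemoglobin UMIs (percent, vertical axes) in erythroid barcodes and in 4 other classes under the 2% limit, with 1 point for each library. The Hba-x share is similar in all classes, the Hba-a1 share of adult alpha UMIs is lower outside erythroid barcodes, and the adult beta share is higher in control 1 than in the mutants in each class.

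No haemoglobin gene was called between mutants and control in these classes, at edgeR backgrounds of 1.77% of 10092 genes in mesenchyme, 0% of 10650 in ectoderm and 0% of 9755 in endothelium. Hbb-bs and Hbb-bt fell below the filter of 5 CPM in each fit. In mesenchyme the log2 folds of the 5 others lay between -0.25 (Hba-a2, SE 0.30, adjusted p = 1.00) and -0.05 (Hba-a1, SE 0.29). In ectoderm they lay between 0.15 (Hba-a2, SE 0.15) and 0.34 (Hba-a1, SE 0.19), and in endothelium between -0.10 (Hba-a2, SE 0.12) and 0.19 (Hba-a1, SE 0.13). The summed level in mesenchyme differed by -0.07 on the log2 scale, less than the mutant SD of 0.107 (n = 2). Restricted to barcodes of at least 10000 UMIs, this difference was 0.17.

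Over all mesenchyme barcodes, including those at or above the 2% limit, the number of haemoglobin UMIs in a barcode did not keep pace with its depth. Barcodes under 1000 UMIs had medians of 14, 9 and 9 haemoglobin UMIs, where the median total was 890, 829 and 841. Those of 1000 to 10000 UMIs had 8, 12 and 9. Those of 10000 to 50000 UMIs had 13, 18 and 18, and those above 50000 UMIs had 45, 37 and 33, where the median total was 110451, 80178 and 69700. The level in CPM fell accordingly, from 21970, 13195 and 11605 CPM in the shallowest to 437, 462 and 480 CPM in the deepest range. The 2% limit admitted 123, 40 and 14 barcodes of mesenchyme clusters as erythroid, and the depth ranges above include them. At a limit of 10% the Hba-x shares in erythroid barcodes were 66.5%, 70.3% and 70.0%, the same as at 2%.

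**Figure D4:**
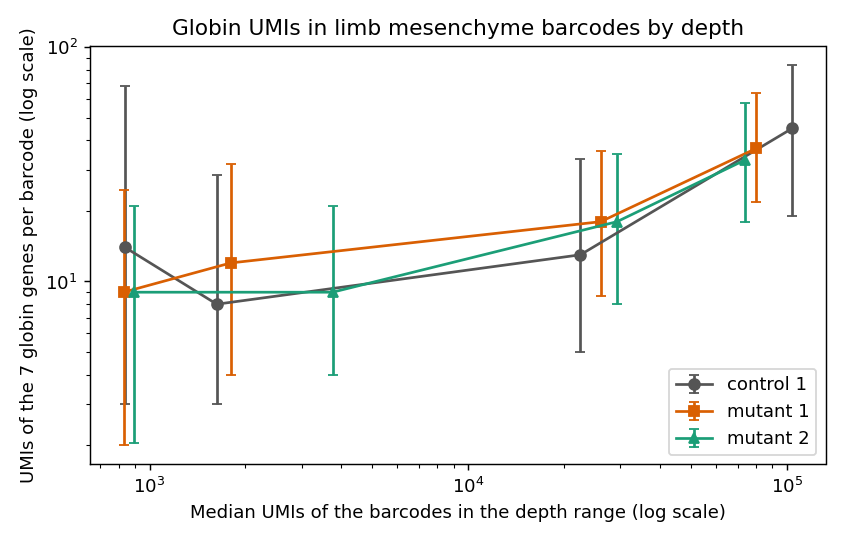
UMIs of the 7 globin genes per limb mesenchyme barcode (vertical log axis, all barcodes of the class) against the median depth of 4 depth ranges (horizontal log axis), by library. Points are medians and bars run from the 5th to the 95th percentile; libraries are drawn slightly apart, and the medians are 14, 9 and 9 in the shallowest and 45, 37 and 33 in the deepest range.

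This low level had nearly the embryonic composition of erythroid barcodes. Hba-x was 69.2 to 70.4% of alpha-type UMIs over the 4 classes of control 1, 68.3 to 69.3% in mutant 1 and 69.2 to 69.8% in mutant 2. Hbb-bh1 was 20 to 21.6%, 19.7 to 21.1% and 19.3 to 20.2% of the embryonic beta UMIs. The lower Hba-x share of control 1 in erythroid barcodes, 66.5%, was thus not seen in the other classes of that library.

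The adult-type chains of the low level did differ from those of erythroid barcodes. Hba-a1 was 45.1%, 47.7% and 49.5% of the adult alpha UMIs in mesenchyme, against 62.9%, 64.4% and 63.3% in erythroid barcodes, and Hba-a2 was the larger of the pair in every class sum but ectoderm and myogenic progenitors of mutant 2. Adult beta chains were 2.61 to 3.37% of beta-type UMIs over the 4 classes of control 1. In mutant 1 they were 0.984 to 1.14% and in mutant 2 0.930 to 1.44%, so no control class overlapped a mutant one. The classes of a library are not replicates, so this sets 1 control library against 2 mutant ones. The control value for myogenic progenitors rests on 45 barcodes with 1046 haemoglobin UMIs. In mesenchyme Hbb-bs stood at 7.20, 1.92 and 1.60 CPM, and Hbb-bt at 2.08, 1.40 and 1.18 CPM.

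Some endothelial barcodes carried far more. Including the barcodes at or above 2%, 6, 3 and 3 in number, raised the haemoglobin UMIs of the endothelium class from 22288 to 49824 in control 1, from 13465 to 39663 in mutant 1 and from 12348 to 37343 in mutant 2. Whether these barcodes held cells of both kinds was not tested.

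A separate population of barcodes with adult-type haemoglobin was found mostly in the control library. Defined after its values were seen as haemoglobin above 20% of UMIs with adult chains above 50% of the beta-type UMIs, it held 71 of 6527 deposited barcodes in control 1 (1.09%, 95% interval 0.851% to 1.37%). Mutant 1 had 5 of 7219 (0.0693%, 0.0225% to 0.162%) and mutant 2 had 3 of 8755 (0.0343%, 0.00707% to 0.100%). The embryonic chains that define the erythroid barcodes were under 2% of their UMIs, so all lay outside that rule.

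Haemoglobin filled 90.8%, 81.5% and 80.6% of the UMIs of these barcodes. In control 1 Hbb-bs alone stood at 459510 CPM, Hba-a1 at 200011, Hba-a2 at 156194 and Hbb-bt at 91576 CPM. The embryonic genes were low, with Hbb-y at 474, Hba-x at 410 and Hbb-bh1 at 135 CPM. Alas2, the first enzyme of haem synthesis in red cells, stood at 1493, 1212 and 1154 CPM and Bpgm, a late erythroid enzyme, at 1404, 952 and 673 CPM. Klf1 was at 0, 0 and 0 CPM. The barcodes were small, with median depths of 7030, 4555 and 4119 UMIs and medians of 298, 437 and 418 genes. Of them 64, 3 and 3 had fewer than 500 genes, and 6, 0 and 0 passed the barcode filter.

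The shares within the near-identical adult pairs, uncertain as said for single values of these genes, differed from those in erythroid barcodes. Hbb-bs was 83.4%, 91.7% and 85.3% of the adult beta UMIs, against 71.4%, 64.3% and 61.6% in erythroid barcodes, and Hba-a1 was 56.2%, 56.3% and 53.8% of the adult alpha UMIs. In control 1 the Hbb-bs share was 95.2% in the 33 adult-type barcodes under 5000 UMIs and 81.8% in the 38 deeper ones. Alpha-type UMIs were 0.646, 0.510 and 0.530 times the beta-type ones.

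**Figure D5:**
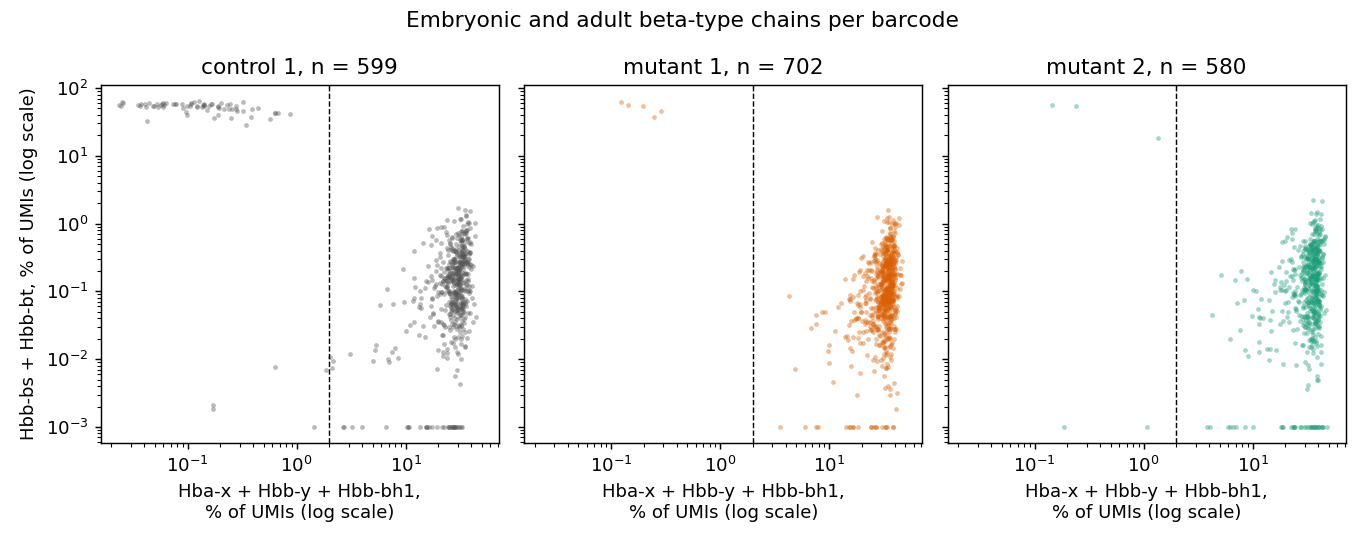
Adult beta-type chains (vertical log axis, percent of UMIs) against embryonic chains (horizontal log axis, percent of UMIs) for every deposited barcode with at least 200 haemoglobin UMIs, by library; a value of 0 on the vertical axis is drawn at 0.001 and the dashed line marks the 2% limit. The group at the upper left holds the adult-type barcodes, 71 in control 1, 5 in mutant 1 and 3 in mutant 2.

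Control 1 also held 18 deposited barcodes with at least 20 UMIs of both S100a8 and S100a9, genes of granulocytes, against 0 and 0 in the mutants. Most of the adult-type barcodes, the barcodes with S100a8 and S100a9 and the higher adult beta share of the low level in other cells were thus found in the same library. Their part in the higher adult share of its erythroid barcodes was not tested. The 6 adult-type barcodes that passed the filter fell in the erythroid clusters, and with them the adult beta share of those clusters was 2.05% in control 1. Without them it was 1.33%, against 0.909% and 1.00% in the mutants, and the difference in the log2 ratio was 0.31 as by the 2% rule. Subtracting the mesenchyme level of each library from its erythroid sums left adult beta shares of 1.33%, 0.906% and 1.00%. Neither step takes out adult-type cells captured in the same droplet as an erythroid cell, and their share was not tested.

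The macrophage-named cluster had a higher Hbb-bh1 share than the other classes, resting in part on a few barcodes. Across its barcodes under the 2% limit, Hbb-bh1 was 56.0%, 26.9% and 31.5% of embryonic beta UMIs, above the 19.3 to 21.6% of the other classes. Barcodes with at least 10 UMIs of Itga2b, the platelet integrin of megakaryocytes, numbered 4, 1 and 6 in this cluster, a selection made after the values were seen. In 2 of these 11 barcodes, both of mutant 2, the embryonic chains were 8.36% and 5.13% of UMIs, so they are erythroid by the 2% rule; they held 774 and 597 Hbb-bh1 UMIs against 985 and 267 of Hbb-y. Under the limit, Hbb-bh1 exceeded Hbb-y in 2 of 4, 1 of 1 and 0 of 4 barcodes and was 85.9%, 75.8% and 41.9% of the pair. The control value rests on 1 barcode with 606 Hbb-bh1 UMIs against 20 of Hbb-y and 1278 UMIs of the platelet factor gene Pf4, and without it the share was 52.5%. Without its barcode with the most Hbb-bh1, mutant 2 had 36.8%. In the other macrophage-gene barcodes Hbb-bh1 was 22.4%, 22.4% and 24.2% of the pair. C1qb, a macrophage gene, had 0 UMIs in the Itga2b barcodes of each library. With so few barcodes no comparison between genotypes was made.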

How the data were processed

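The data are UMI counts per gene and barcode from 10x Genomics Chromium 3′ version 3 libraries of 1 control and 2 mutant pools. The deposited matrices hold whole counts with no normalisation; Cell Ranger 7.0.0, Seurat 4.0.0 and build mm10 are named per the submitters' processing notes, while no annotation release, intron handling or cell calling is given in the sources used here. Gene positions come from GENCODE vM21 and promoters from RefSeq, both on GRCm38.

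Barcodes were kept with at least 500 genes, under 10% mitochondrial UMIs and no Scrublet call (scanpy 1.11.5, expected rate 0.06), which removed 41, 96 and 122 doublets. Clusters (leidenalg 0.10.2, resolution 1, 2000 variable genes, 30 components, 15 neighbours) were built without globin genes and named from 13 marker lists, with naming limits set with the clusters in view.

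UMIs were summed per library and tested with edgeR 4.0.16 (quasi-likelihood, TMM factors of 1.06, 0.995 and 0.950, genes averaging 5 CPM or more, Benjamini-Hochberg adjustment over all genes), or with DESeq2 1.42.0 as an alternative. CPM of members are relative to all UMIs of the class; for other tested genes they are scaled by the TMM factors over tested genes. In a test on simulated data made from the erythroid sums of 7270 genes, 181 of 200 genes changed 4-fold were called, with 5 unchanged genes. The simulation gave every gene the same fixed spread between libraries, unlike the data. It does not show how often changes as small as those of the haemoglobin genes would be called. Ratios of summed UMIs have no test, and the alternatives were other barcode limits, clusters, filters, thinning, medians and scalings.

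The members, lists and rules were chosen with earlier results of these data known. Named genes are the 7 members, up to 4 genes of each list with the largest fold for its error, and the correlated genes. The last are the 8 highest and 8 lowest at 100 or more CPM among non-globin UMIs. Klf1, Myb, Ptprc, Cd34, Meis1 and Esco2 were added after their values were seen. So were the genes of the adult-type, S100a8 and Itga2b barcodes. Classes of coelomic and flank cells had mixed leading genes and were left out. The work used Python 3.11.15 and R 4.3.3.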

Additional observations from a re-analysis of the deposited data

How the results depend on the processing

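The 4 ratios kept their direction under every alternative run. In the clusters named from non-globin markers the difference in the log2 ratio of embryonic to adult-type UMIs was 0.36, that in the Hba-x share 3.96 points and that in the adult beta share -1.09 points; without the adult-type barcodes, an alternative chosen after seeing the data, they were 0.31, 3.65 and -0.376. As medians over barcodes the differences were 3.20 points for Hba-x and -0.299 points for adult beta. Leaving out either mutant gave 0.30 to 0.31 for the ratio, 3.49 to 3.79 for the Hba-x share, -2.26 to -0.270 for the Hbb-bh1 share and -0.428 to -0.331 for the adult beta share.

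The mesenchyme level, -0.07 in log2, was -0.29 with all barcodes of the class, -0.77 as a median over barcodes, 0.17 in barcodes of at least 10000 UMIs, and -0.14 to 0.0091 when leaving out a mutant, so it has no stable direction. The count of called erythroid genes was 204 with no filter on low counts (102 higher, 102 lower) and 22 with DESeq2, against 0; the cause was not tested. Hba-a1 turned to -0.061 with library sizes only. Hba-a2, near 0, turned to -0.12 with library sizes only, -0.00074 without the filter, -0.021 at the 10% limit, -0.032 in the clusters, -0.0077 there without adult-type barcodes, -0.042 with all deposited barcodes and, leaving out a mutant, -0.090 to 0.105. Hbb-bt turned to -0.23 in the clusters and was 0.05 to 0.49 leaving out a mutant; Hbb-bs was -0.97 in the clusters, -0.30 there without adult-type barcodes and -0.42 to -0.15 leaving out a mutant. Library sizes alone moved the median log2 fold of all genes to -0.13 from -0.01; Hbb-y, Hbb-bh1 and Hba-x stayed positive there at 0.28, 0.18 and 0.16. Leaving out a mutant leaves no residual degrees of freedom, so those folds have no test.

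No paired analysis was possible because the control library carries no replicate number in the labels and is alone in its group. With 1 control library, batch and genotype cannot be told apart. Counting error is small for the erythroid shares, which rest on 5182223 or more UMIs each for the alpha-type chains. The number of libraries limits them. The Hba-x share also differed with barcode depth, at 62.6%, 66.9% and 66.0% in the shallowest group and 67.3%, 71.0% and 71.0% in the deepest. Depth was not matched between libraries other than by thinning, and its part in the differences was not tested.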
